A study of Mus musculus with 9 samples.

Results

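The SR and hnRNP genes encode the general RNA-binding splicing factors that every cell uses, and 30 of the 38203 genes in the expression table were analysed as this group. Members were chosen by symbol and by level. The symbol had to be Srsf with a number or begin with Hnrnp or Hnrp, without a pseudogene mark, and the genes were selected on a mean of at least 1 FPKM over the 9 libraries. FPKM counts fragments relative to the length of the transcript and the size of the library. Of 31 matching symbols only Srsf12 failed the level, and 10 Srsf and 20 hnRNP genes remained, all of which passed the filter on low values used for the tests.

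SR proteins carry RNA recognition motifs and a domain rich in arginine and serine, bind exonic enhancers and favour the inclusion of exons. Proteins of the hnRNP families coat nascent transcripts and often, though not always, act against exon inclusion by binding silencers. Esrp1 and Esrp2 are splicing factors restricted to epithelia that act on top of this general machinery.

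Epidermis was taken from embryos at E18.5, from the basal to the cornified layer, and sequenced as poly-A selected, strand-specific libraries. WT embryos (2 libraries) carried both genes by their labels, KO embryos (3) lacked Esrp1 and were WT for Esrp2, KH embryos (2) lacked Esrp1 and were heterozygous for Esrp2, and DKO embryos (2) lacked both. The text on RNA extraction instead gives the control genotype as Esrp1+/+, Esrp2-/-, whereas both WT libraries held Esrp2 RNA. All embryos were on a mixed C57BL6/129Sv background, Esrp1 was deleted in the germline with Zp3-Cre, and the disrupted Esrp2 allele carries lacZ. Each library is one embryo, so p-values measure the spread between embryos.

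Esrp2 was at 0.0843 and 0.0463 FPKM in DKO, labelled as lacking it, and at 118 and 136 in WT and 88.1, 88.4 and 131 in KO. In KH, labelled heterozygous, it was at 38.6 FPKM in KH 1 but at 89.5 in KH 2, within the range of KO, so the level did not set KH 2 apart from embryos with both alleles. Esrp1, of which only some exons were deleted, was at 119 and 142 FPKM in WT and at 18.2 to 55.1 FPKM in the 7 libraries without functional Esrp1. The epidermal markers were present. All 7 basal and all 6 spinous markers were above 1 FPKM in at least 1 library, and the 6 endothelial markers stayed below 1 FPKM in every library, as did 7 of 8 skeletal muscle markers. The 8 dermal fibroblast markers, 2 of them below 1 FPKM throughout, summed to 291 and 325 (WT), 558, 457 and 439.9 (KO), 519.8 and 428 (KH) and 415 and 405 FPKM (DKO), so all 7 mutant libraries lay above WT. At an unadjusted p below 0.05, 2 of 7 tested fibroblast genes were higher in each mutant genotype. The 6 melanocyte markers summed to 50.03 and 44.5 (WT), 86.7, 83.0 and 69.9 (KO), 155 and 58.5 (KH) and 97.2 and 213 FPKM (DKO), and 4 of the 6 were higher in DKO than in WT at an unadjusted p below 0.05, with a median log2 fold change of 1.34 and none called. The 9 red blood cell markers ranged in sum from 24.8 FPKM in KH 1 to 2481 in DKO 2. The part of these cells in the members' levels was not tested.

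The annotated start sites of 3 genes are shown because these genes bracket the differences described below. Hnrnpa3 had the largest difference between DKO and WT, Srsf9 the largest between KO or KH and WT, and Hnrnpf the most negative between DKO and WT. Each sequence holds the 300 bases around the most upstream start in RefSeq (GRCm38.p6), most of them before it, on the plus strand, and lies at chr2:75659009-75659308, chr5:115326927-115327226 and chr6:117900090-117900389, in that order. Capitals mark the GC box GGGCGG, the box CCAAT, the ETS-type site CCGGAA, the E box CACGTG, the AP-1 site TGANTCA or the TATA box TATAAA on either strand. None of these letter strings contains another.
Hnrnpa3: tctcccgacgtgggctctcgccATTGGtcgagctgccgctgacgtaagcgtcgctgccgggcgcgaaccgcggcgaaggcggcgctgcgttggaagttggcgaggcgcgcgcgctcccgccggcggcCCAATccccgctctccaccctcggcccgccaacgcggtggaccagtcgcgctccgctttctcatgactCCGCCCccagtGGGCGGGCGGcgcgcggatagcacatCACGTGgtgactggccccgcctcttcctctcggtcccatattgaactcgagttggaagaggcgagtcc
Srsf9: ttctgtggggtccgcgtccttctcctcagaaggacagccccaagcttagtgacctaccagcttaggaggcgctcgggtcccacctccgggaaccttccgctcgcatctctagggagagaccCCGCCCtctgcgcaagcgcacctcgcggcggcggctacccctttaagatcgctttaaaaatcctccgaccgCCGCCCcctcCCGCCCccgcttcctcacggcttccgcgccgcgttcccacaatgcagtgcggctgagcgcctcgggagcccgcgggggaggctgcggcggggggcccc
Hnrnpf: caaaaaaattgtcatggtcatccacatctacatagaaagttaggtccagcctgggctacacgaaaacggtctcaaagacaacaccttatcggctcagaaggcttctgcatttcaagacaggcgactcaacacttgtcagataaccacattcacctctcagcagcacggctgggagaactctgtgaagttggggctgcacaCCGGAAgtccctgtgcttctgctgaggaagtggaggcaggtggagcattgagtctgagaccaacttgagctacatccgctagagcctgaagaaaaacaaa

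Promoters were found for 28 of the 30 members. GGGCGG was present in 22 of these 28, against 35.9% of the 27025 promoters in the table, and CCGGAA in 12 of 28, against 15.2%. CCAAT was present in 16 (38.0% of all promoters), CACGTG in 4 (7.24%), TATAAA in 4 (14.2%) and TGANTCA in 1 (7.92%). The members' promoters were also rich in CpG, with a median of 31.5 dinucleotides in 300 bases against 7 over all promoters. Among the 3 shown, Hnrnpa3 had 44, Srsf9 32 and Hnrnpf 7, the lowest of any member. These are letter matches in a fixed window and not measured binding. The background held promoters of genes at any level, and no shares were computed over genes as abundant as the members. The differences are therefore not shown to be particular to splicing factor genes.

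All 30 genes were well expressed in the epidermis, and 5 of them made up 35.9% to 39.6% of the summed FPKM of the group in each library. Hnrnpk, which binds C-rich RNA through KH domains, had the highest mean at 307 FPKM. Hnrnpa2b1, a homologue of the silencer-binding Hnrnpa1, followed at 283 and Srsf5, a classical SR protein, at 269.9 FPKM. Hnrnpab averaged 229.98 and Hnrnph1, a binder of G-runs, 218 FPKM. FPKM is scaled by transcript length, which allows levels of different genes to be set side by side, though that of Hnrnph1 is uncertain to the extent that reads shared with near-identical copies were counted.

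At the lower end stood Hnrpll, the homologue of Hnrnpl known for lymphocyte splicing, at a mean of 10.2 FPKM. It was at 8.46 and 8.38 (WT), 14.2, 8.31 and 8.85 (KO), 15.0 and 6.85 (KH) and 8.12 and 14.0 FPKM (DKO). The high values of Hnrpll came from 1 library in each of the 3 mutant genotypes and the groups overlapped. Hnrnpul1 and Srsf4 followed at 30.7 and 30.8 FPKM. Below the line, Srsf12 averaged 0.164 FPKM and never exceeded 0.302, so no matching gene lay close to the threshold of 1 FPKM. Between the highest and the lowest library, levels differed by 1.21-fold for Hnrnpul2, the steadiest member, and by up to 2.40-fold for Hnrnph3 and 2.36-fold for Srsf11.

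**Figure D1:**
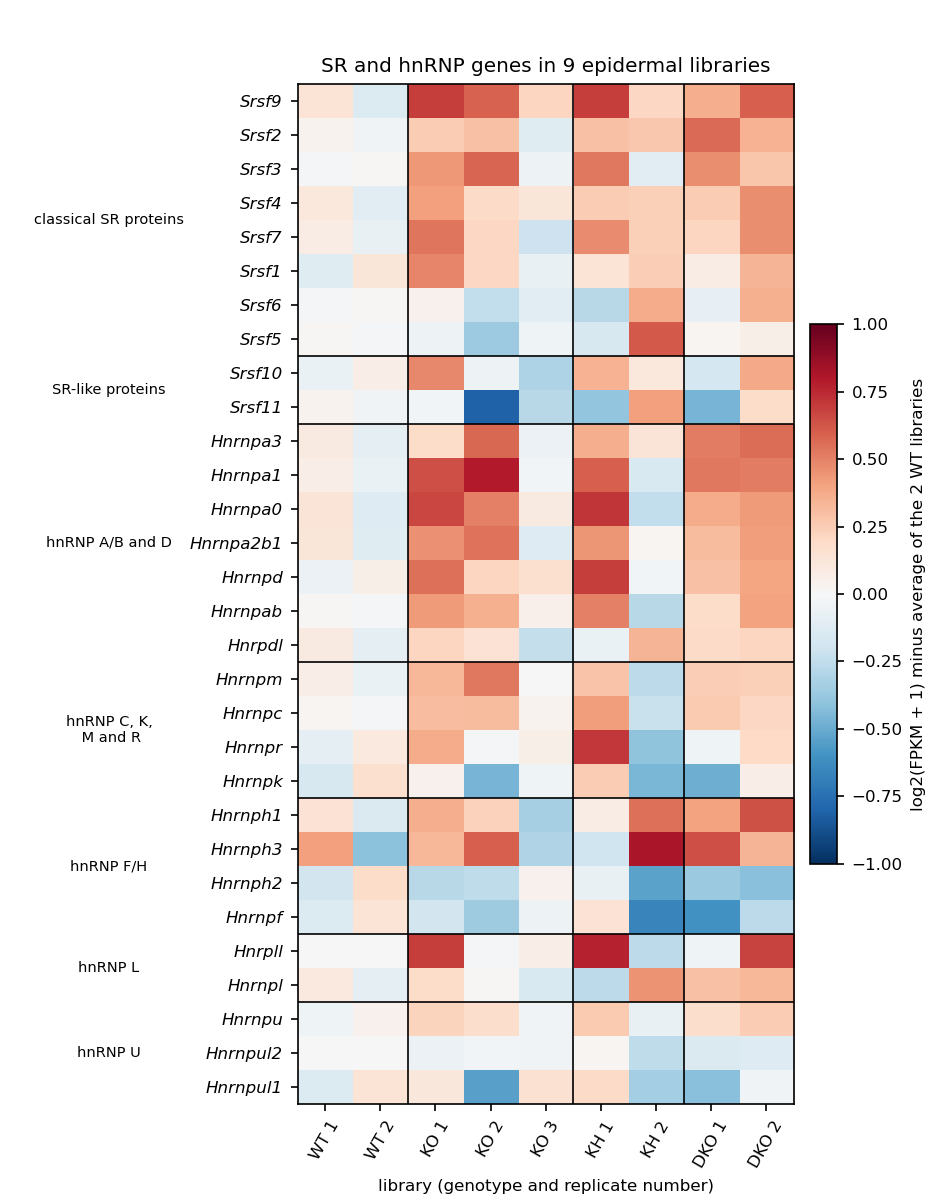
The heat map shows each of the 30 genes (rows, by protein family) in each of the 9 libraries (columns) as log2(FPKM + 1) minus the average of the 2 WT libraries. Red cells lie above WT and blue cells below; KO 3 stands near WT, with a median of -0.04, and the 2 KH libraries differ from each other in many rows.

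The first question was whether the general splicing factors differed in level once both Esrps were lost. No member was called between DKO and WT at an adjusted p below 0.05 and more than 2-fold in average FPKM, a line that 0.728% of the 16897 tested genes passed. The values of the members nevertheless lay mostly above WT, with 24 of 30 log2 fold changes above 0 and a median of 0.27, against 0.02 over all tested genes and 0.01 over the 6331 genes at least as abundant as the lowest member. None reached a ratio of 1.5 in average FPKM in either direction. At a ratio of 1.2, 15 members were higher in DKO, where 35.9% of all tested genes were, and 2 were lower, against 30.6%.

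By the less strict count, in which both DKO libraries lay above both WT libraries, 18 of 30 members were higher, while 27.8% of all tested genes were. Lower in this sense were 3 members, Hnrnpf, Hnrnph2 and Hnrnpul2, against 26.4% of all genes. At an unadjusted p below 0.05, 1 member was higher and none lower, where 6.15% and 7.60% of all tested genes were. The share of members at this line was thus not above the background. With limma's 5 residual degrees of freedom the standard error of a member's log2 fold change had a median of 0.28. The median log2 level of the members also varied between embryos, with an SD of 0.12 within genotypes. That SD is not of the median difference from the WT average, which ran from -0.04 to 0.33 among the KO embryos.

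Hnrnpa3 (chr2:75659243-75669407, mm10), a homologue of Hnrnpa1, was the member at an unadjusted p below 0.05. It was at 32.1 and 28.3 (WT), 34.3, 45.3 and 29.0 (KO), 39.0 and 33.0 (KH) and 43.4 and 44.8 FPKM (DKO). Both DKO libraries lay above both WT libraries, and KO 2 was as high as DKO. The log2 fold change of Hnrnpa3 in DKO was 0.53 ± 0.23 (SE; 95% interval 0.00 to 1.07), with a Benjamini-Hochberg adjusted p of 0.362 in limma. Under other settings the number of members at this line ranged from 0 to 3.

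The classical SR genes had a median log2 fold change of 0.35 in DKO, with all 8 above 0. Srsf9, which encodes one of the smaller SR proteins, was at 44.6 and 36.6 (WT), 65.8, 61.4 and 47.0 (KO), 65.9 and 46.8 (KH) and 52.3 and 61.6 FPKM (DKO). All 7 mutant libraries of Srsf9 lay above both WT libraries, the lowest of them by little. The same held for 1 other member, so for 2 of 30, against 5.07% of all tested genes, while none lay below WT in all 7 (5.08%). The other member was Srsf4, at 28.3 and 24.4 (WT), 35.2, 30.1 and 28.6 (KO), 31.5 and 31.2 (KH) and 31.5 and 36.7 FPKM (DKO). The log2 fold change of Srsf9 was 0.48 ± 0.25 in DKO (adjusted p = 0.427). Srsf2, which binds both C-rich and G-rich enhancers, was at 175 and 168 FPKM in WT and at 255 and 218 in DKO, and its groups did not overlap. Srsf3, a small SR protein that also couples splicing to export, was at 172 and 176 (WT), 236, 262 and 168 (KO), 252 and 161 (KH) and 240.1 and 212 FPKM (DKO). Srsf5 was at 266 and 262 (WT), 255, 205 and 257 (KO), 236 and 405 (KH) and 268 and 276 FPKM (DKO), with KH 2 as the highest library.

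The A/B and D families, whose proteins bind UAG-like and AU-rich elements, had a median of 0.37 in DKO with all 7 members above 0. Hnrnpa1, the best known binder of exonic silencers, was at 113 and 103 (WT), 169.8, 187 and 106 (KO), 164 and 97.2 (KH) and 156 and 155 FPKM (DKO). The 2 DKO values of Hnrnpa1 were close together and above WT, whereas KO and KH each held 1 library at the WT level. The log2 fold change of Hnrnpa1 in DKO was 0.52 ± 0.33 (adjusted p = 0.501). Hnrnpa2b1 was at 259 and 218 (WT), 326, 346 and 216 (KO), 323 and 241 (KH) and 296 and 317 FPKM (DKO). KO 3 was again at the WT level, and DKO did not overlap WT. Hnrnpab was at 201 and 199 (WT), 269, 256 and 207 (KO), 283 and 165 (KH) and 227 and 264 FPKM (DKO), and KH 2 was the only library below WT.

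The F/H genes were split, with a family median of 0.05 in DKO. Their proteins recognise runs of G and are close homologues. Hnrnph1 (chr11:50376989-50386528, mm10) was at 203 and 167 (WT), 237, 216 and 146 (KO), 194 and 269.6 (KH) and 243 and 287 FPKM (DKO). Hnrnpf (chr6:117900323-117925622, mm10) ran the other way, at 171 and 206 (WT), 165, 146 and 181 (KO), 208 and 118 (KH) and 123 and 157 FPKM (DKO). Neither gene overlapped between DKO and WT. The log2 fold changes in DKO were 0.52 ± 0.30 for Hnrnph1 (adjusted p = 0.463) and -0.43 ± 0.29 for Hnrnpf (adjusted p = 0.532).

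Hnrnph2, the X-linked member, was at 39.5 and 51.3 (WT), 36.9, 37.5 and 46.4 (KO), 42.7 and 30.7 (KH) and 34.6 and 33.4 FPKM (DKO), with a log2 fold change of -0.40 ± 0.23 in DKO (adjusted p = 0.472). Both DKO libraries were below both WT libraries. Xist, which marks female tissue, was at 76.2 to 180.4 FPKM in WT 2 and the 3 KO libraries and at no more than 0.178 FPKM elsewhere, and the part of sex in the values of Hnrnph2 was not tested. Hnrnph3 varied within every genotype, at 39.6 and 22.0 (WT), 37.5, 45.2 and 23.8 (KO), 25.6 and 52.7 (KH) and 46.8 and 37.6 FPKM (DKO). Its log2 fold change of 0.49 ± 0.42 (adjusted p = 0.616) rested on overlapping groups and was 0.08 to 0.90 when single libraries were left out.

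**Figure D2:**
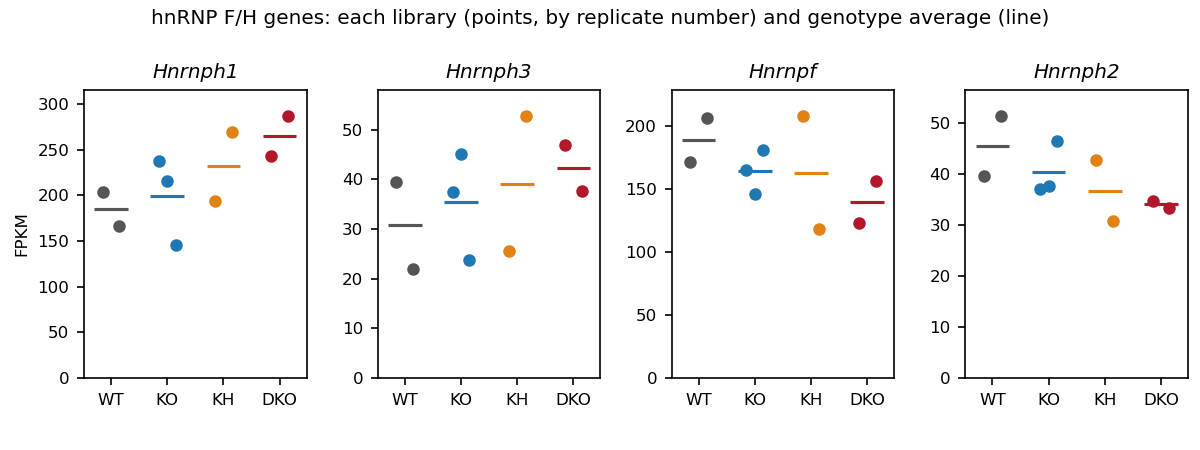
The 4 panels plot the FPKM of the F/H genes in each library (points) with the average of each genotype (lines). Hnrnph1 is higher and Hnrnpf and Hnrnph2 lower in DKO than in WT without overlap, while Hnrnph3 overlaps.

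The ratio of Hnrnph1 to Hnrnpf FPKM was 1.97 and 1.83 in DKO against 1.19 and 0.807 in WT. It was 1.44, 1.48 and 0.806 in KO and 0.931 and 2.28 in KH, so the highest ratio belonged to a KH library. The ratio was chosen after its values were seen and was not tested.

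The remaining hnRNP families had medians of 0.31 (L), 0.16 (C, K, M and R) and -0.13 (U) in DKO. The U family, which includes the chromatin-associated scaffold Hnrnpu, had 1 of 3 members above 0, and Hnrnpul1 was at 29.3 and 35.8 (WT), 35.2, 21.9 and 36.1 (KO), 37.2 and 25.4 (KH) and 24.0 and 31.6 FPKM (DKO). Its groups overlapped (log2 fold change in DKO -0.23 ± 0.30, adjusted p = 0.757). Hnrnpk was at 294 and 368 (WT), 339, 238 and 319 (KO), 391 and 239 (KH) and 234 and 345 FPKM (DKO). One library of each mutant genotype was below both WT libraries, and KH 1 was the highest of all 9 (-0.21 ± 0.33 in DKO, adjusted p = 0.799). Without DKO 1 the log2 fold change of Hnrnpk was 0.07. Hnrnpc, Hnrnpm and Hnrnpr, which bind U-rich, GU-rich and other tracts, and both L genes had log2 fold changes above 0. Of these, Hnrnpm is known to compete with Esrp1 on shared exons. Hnrnpm was at 90.7 and 83.0 (WT), 109, 125 and 87.2 (KO), 106 and 72.3 (KH) and 103 FPKM in both DKO libraries. Its log2 fold change was 0.29 ± 0.23 in KO, 0.01 ± 0.25 in KH and 0.24 ± 0.25 in DKO.

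**Figure D3:**
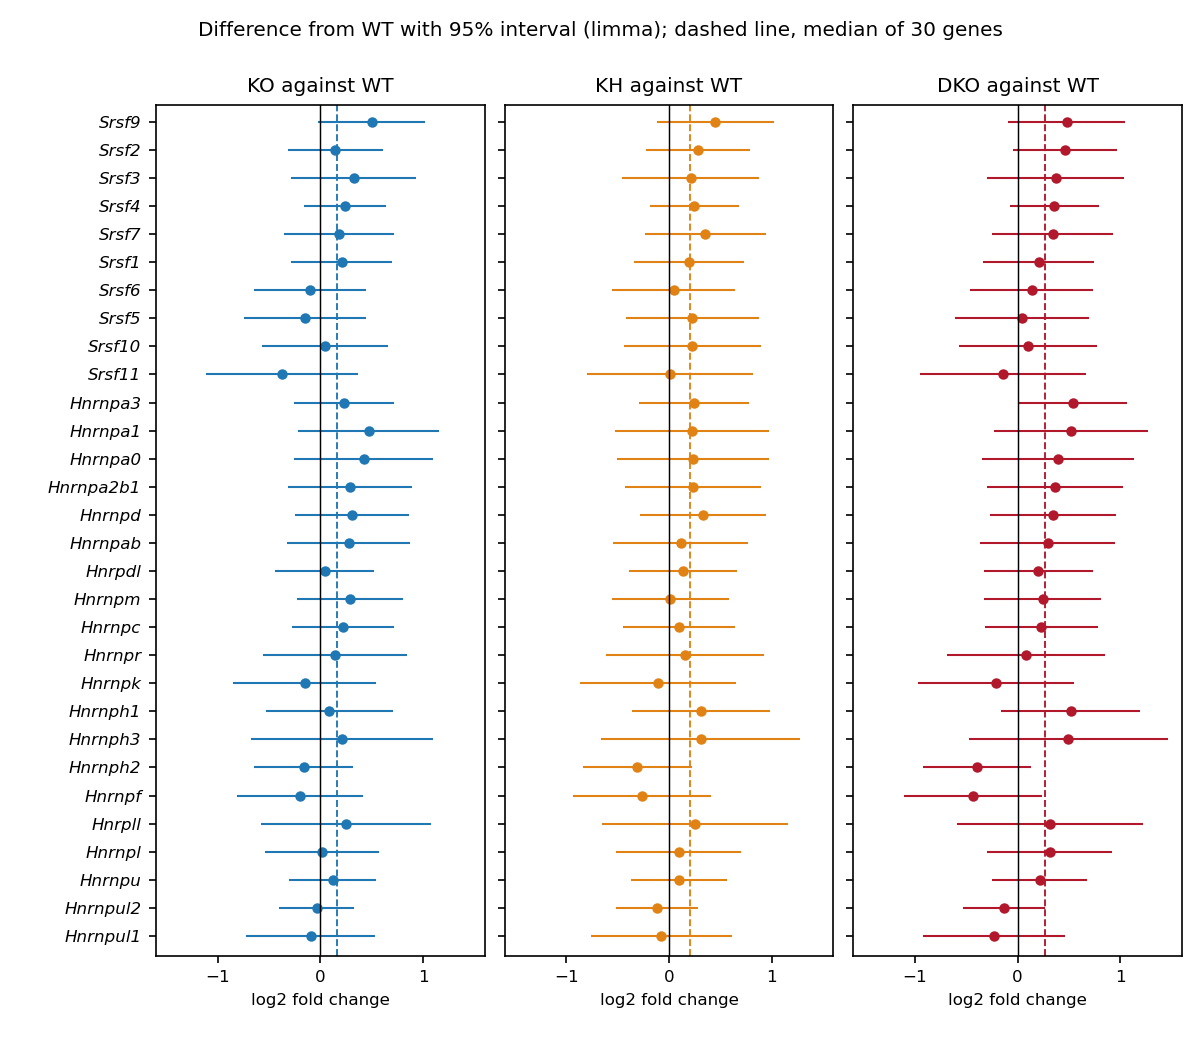
The plot gives the log2 fold change of each of the 30 genes against WT (points) with its 95% interval from limma (bars) in KO, KH and DKO. All intervals but that of Hnrnpa3 in DKO include 0, and the dashed medians lie at 0.16 in KO, 0.20 in KH and 0.27 in DKO.

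The second question was whether loss of Esrp1 alone came with a difference. No member was called between KO and WT, where 0.0296% of all tested genes were, and none was at an unadjusted p below 0.05, against 2.25% of all genes higher and 2.27% lower. The median log2 fold change of the members was 0.16, with 22 of 30 above 0, against 0.00 over all tested genes. It was 0.05 without KO 1 and 0.30 without KO 3. At a ratio of 1.2, 9 members were higher (29.9% of all genes) and 1 was lower (25.3%).

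The libraries of KO and WT did not overlap in 5 members that were higher, Hnrnpab, Hnrnpc, Hnrnpd, Srsf4 and Srsf9 (12.6% of all genes), and in 2 that were lower, Srsf5 and Hnrnpul2 (12.1%). Srsf9 had the largest log2 fold change, 0.50 ± 0.23 (adjusted p = 0.853), followed by Hnrnpa1 at 0.47 ± 0.30. Hnrnpa0, an intronless gene of the A/B family, was at 56.1 and 46.8 (WT), 82.1, 73.1 and 54.7 (KO), 84.7 and 43.0 (KH) and 66.4 and 69.3 FPKM (DKO). KO 3 of Hnrnpa0 lay between the WT libraries, and the log2 fold change was 0.42 ± 0.30 (adjusted p = 0.853). Srsf3 had a log2 fold change of 0.32 ± 0.27 in KO, from 236, 262 and 168 FPKM, of which the last lay below WT.

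Srsf11, an SR-like protein, was the most negative member in KO, at -0.37 ± 0.32 (adjusted p = 0.853). It was at 60.2 and 57.3 (WT), 57.4, 33.1 and 48.2 (KO), 44.4 and 78.3 (KH) and 42.2 and 66.8 FPKM (DKO). The value of KO 2 was the lowest of all libraries, and KO 1 was at the WT level. Hnrnpf, Hnrnph2 and Hnrnpk followed at -0.20 ± 0.27, -0.16 ± 0.21 and -0.15 ± 0.30, all at an adjusted p of 0.878 or more.

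In KH, with 1 Esrp2 allele left, again no member was called (0.0296% of all tested genes) or at an unadjusted p below 0.05 (1.63% higher and 2.09% lower). The median of the members was 0.20 (0.32 with TPM or quantile scaling), with 25 of 30 above 0, against 0.00 over all tested genes and -0.07 over those at least as abundant as the lowest member. At a ratio of 1.2, 10 members were higher (29.7% of all genes) and 1 was lower (22.9%). The 2 KH libraries lay above both WT libraries in 7 members (15.3%), of which 5 were classical SR genes, and below both in none (16.6%). The median rested on KH 1: it was -0.003 without that library and 0.27 without KH 2.

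Srsf9 again had the largest log2 fold change in KH, 0.45 ± 0.25 (adjusted p = 0.980). Srsf7, an SR protein with a zinc knuckle, was at 53.9 and 48.7 (WT), 74.6, 59.2 and 44.3 (KO), 71.5 and 60.5 (KH) and 59.7 and 71.2 FPKM (DKO). Both KH libraries of Srsf7 were above WT, as were both DKO libraries (0.35 ± 0.26 in KH, adjusted p = 0.980). Hnrnpd, which binds AU-rich elements of unstable mRNAs, was at 96.9 and 105 (WT), 148, 117 and 113 (KO), 163 and 98.7 (KH) and 124 and 133 FPKM (DKO). Its log2 fold change of 0.33 ± 0.27 in KH came from KH 1 alone and was -0.03 without it. Hnrnph1 stood at 0.31 ± 0.30, and at 0.07 to 0.55 when single libraries were left out.

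The most negative members in KH were Hnrnph2 at -0.31 ± 0.23, Hnrnpf at -0.26 ± 0.29, Hnrnpul2 at -0.12 ± 0.17 and Hnrnpk at -0.10 ± 0.33, with adjusted p of 0.980 or more. Hnrnpul2 was at 52.5 and 52.2 (WT), 50.3, 51.4 and 51.1 (KO), 53.1 and 43.8 (KH) and 47.4 and 47.9 FPKM (DKO). Hnrnpul2 varied little within WT and KO, and its DKO libraries were below both WT libraries, with a log2 fold change of -0.13 ± 0.17 in DKO (adjusted p = 0.754).

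The mutant genotypes were also compared with each other. No member was called, or at an unadjusted p below 0.05, between DKO and KO (0.639% and 6.80% of all tested genes), between DKO and KH (0.426% and 5.71%) or between KH and KO (0.00% and 1.09%). The lowest unadjusted p of a member in these comparisons was 0.148, 0.245 and 0.179 in limma. The intervals were wide, with a median standard error of 0.25 to 0.28, so that equal levels were not shown either. By Xist, every KO library was female, at 76.2 FPKM or more, and no KH or DKO library was, at 0.178 FPKM or less. Genotype and sex therefore cannot be told apart in DKO against KO and in KH against KO. The comparisons with WT share the same 2 control libraries, and the position of WT therefore enters all of them. Sex was not balanced in these either, since Xist was at 111 FPKM in WT 2 and at 0.0019 in WT 1.

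Embryos of one genotype also differed from each other, most of all in KH. The 2 KH libraries differed by at least 1.5-fold in 15 members, 10 higher in KH 1 and 5 higher in KH 2, whereas the 2 WT libraries did so in 1, the 2 DKO libraries in 2 and pairs of KO libraries in 3 (KO 1 and KO 2), 8 (KO 1 and KO 3) and 6 (KO 2 and KO 3). Of all tested genes, 47.6% differed by as much between the KH libraries, near the share of the members, against 21.7% between the WT libraries, 34.1% between the DKO libraries and 38.1%, 39.8% and 35.4% between the KO pairs in the same order. Of genes at least as abundant as the lowest member, the shares were 34.0% (KH), 4.94% (WT), 20.8% (DKO) and 28.2%, 29.2% and 26.3% (KO pairs). KH 1 was the highest of all 9 libraries for 12 members, and KH 2 was the lowest for 12 and the highest for 6.

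The 10 genes higher in KH 1 were Hnrnpr, Hnrpll, Hnrnpa0, Hnrnpf, Hnrnpab, Hnrnpa1, Hnrnpd, Hnrnpk, Hnrnpc and Srsf3. Hnrnpr was at 52.6 FPKM in KH 1 and 23.7 in KH 2, Hnrpll at 15.0 and 6.85, Hnrnpa0 at 84.7 and 43.0 and Hnrnpab at 283 and 165. The 5 higher in KH 2 were Hnrnph3 at 52.7 against 25.6, Srsf11 at 78.3 against 44.4, Srsf5 at 405 against 236, Hnrnpl, which binds CA repeats, at 220.3 against 134, and Srsf6, another classical SR protein, at 131 against 83.3. Hnrnph1 was also higher in KH 2, by 1.39-fold. Srsf2 and Srsf4 differed little between the 2 embryos, by 1.01-fold each.

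**Figure D4:**
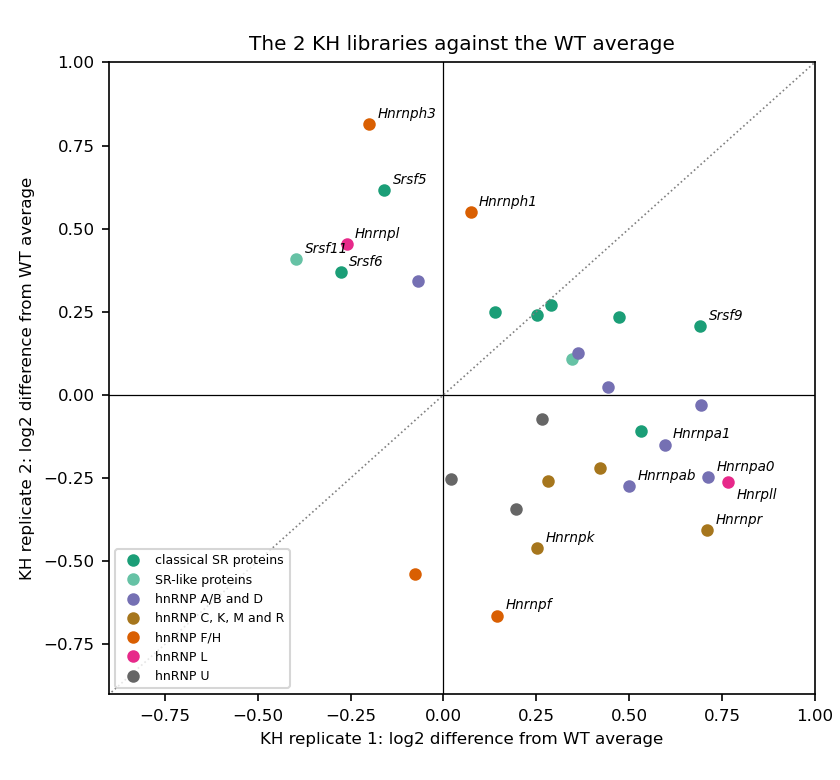
Each point is 1 of the 30 genes, placed by its log2 difference from the WT average in KH 1 (horizontal) and KH 2 (vertical) and coloured by family. Many points lie in the lower right and upper left, where the 2 libraries of the same genotype depart from WT in opposite directions; Srsf9 and 4 other classical SR genes lie above WT in both.

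Genes outside the group also differed between these libraries. Clk1, a kinase of SR proteins, was at 82.4 FPKM in KH 1 and 302 in KH 2, and the nuclear RNA Malat1 at 25.1 and 463 FPKM. The summed level of 12 proliferation genes was 523 FPKM in KH 1 and 239 in KH 2, and that of 6 nuclear noncoding RNAs 511 and 1575 FPKM. Their part in the differences between the KH libraries was not tested.

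Over all libraries, the median log2 difference of the 30 members from the WT average was 0.33, 0.20 and -0.04 (KO), 0.27 and -0.003 (KH) and 0.20 and 0.34 (DKO). The members above the WT average numbered 25, 19 and 11 (KO), 23 and 15 (KH) and 20 and 26 (DKO). The medians of KO 3 and KH 2 were thus close to 0, in KH 2 with members far on either side, from -0.66 for Hnrnpf to 0.82 for Hnrnph3, and those of the other 5 mutant libraries lay above 0. The order of the libraries differed between families. The A/B and D genes were highest in KO 2 and KH 1, at medians of 0.50 each, and lowest of the mutants in KO 3 and KH 2, at -0.03 each, while the classical SR genes were at 0.24 in KH 2.

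The summed FPKM of the members was 3183 and 3158 (WT), 3813, 3510.1 and 3023 (KO), 3771 and 3332 (KH) and 3493 and 3831 (DKO). Both DKO sums were above both WT sums, and KO 3 was the lowest of all. KO 1, KH 1 and DKO 2, the 3 highest, also had the 3 highest sums of the proliferation genes, at 552, 523 and 508 FPKM against 239 to 430.3 in the others. They had the 3 lowest sums of the 6 spinous markers, at 31893, 38461 and 35252 FPKM against 60821 to 85782. The same 3 had the highest basal sums, at 7406 to 8537 FPKM against 4137 to 6607, and the lowest granular and cornified sums, at 5172 to 7054 against 11504 to 15742. Their members made up 0.496% to 0.529% of all FPKM, against 0.310% to 0.364% in the other libraries, and their totals over all genes were also the lowest, at 713318 to 771857 FPKM against 867380 or more. The part of these layers and of cell division in the members' levels was not tested, and in bulk tissue fewer cells of a type and less RNA per cell cannot be told apart.

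**Figure D5:**
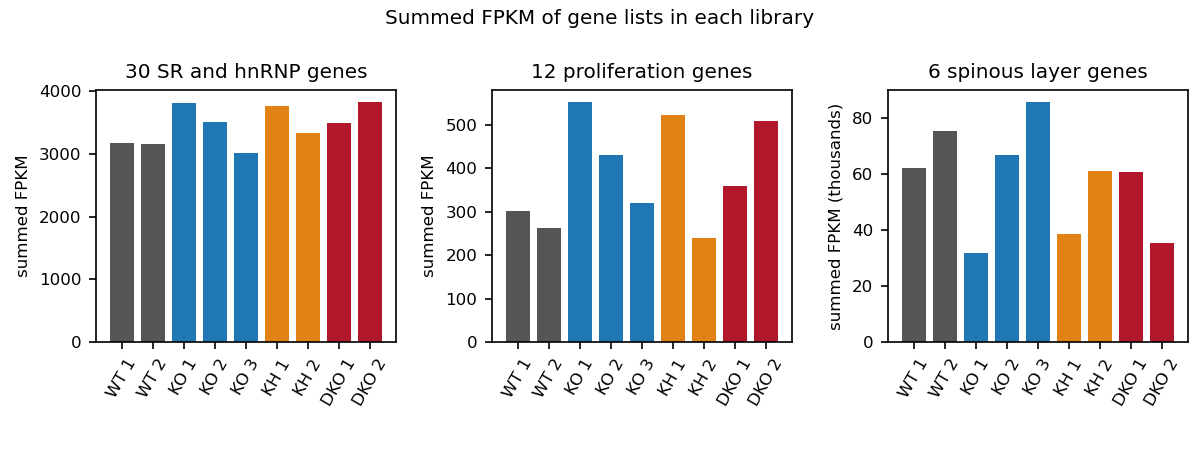
Bars give the summed FPKM of the 30 members, of 12 proliferation genes and of 6 spinous layer genes in each library, coloured by genotype. KO 1, KH 1 and DKO 2 are the 3 highest for the members and for proliferation and the 3 lowest for the spinous layer.

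Correlations between members across the 9 libraries are given as a description, since the points share libraries, genotype and tissue composition. They were not computed for genes outside the group, so no background stands beside them. Of 435 pairs, 20 had a Pearson r of at least 0.9 on the log2 scale and 4 an r of -0.9 or lower, with a median r of 0.33. Srsf3 and Hnrnpa1 were the closest pair (r = 0.97), followed by Hnrnpc and Hnrnpa0 (0.97) and by Hnrnpab and Hnrnpa0 (0.96). Hnrnph1 went with Hnrpdl (0.94) and Hnrnpk with Hnrnpul1 (0.94). The most opposed pairs were Hnrnph1 and Hnrnph2 (-0.93), Hnrpdl and Hnrnph2 (-0.92), and Hnrnph3 with either Hnrnph2 or Hnrnpf (-0.91 each), so all 4 pairs at -0.9 or lower involved Hnrnph2 or Hnrnpf.

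Genes around this machinery were read from lists. Of 19 SR kinases, phosphatases and import factors and 27 tested SR-related genes such as Tra2a, Tra2b and Son, none was at an unadjusted p below 0.05 in DKO, KO or KH against WT. Their median log2 fold changes in DKO were 0.04 and 0.03. Of 22 hnRNP-type genes outside the Hnrnp names, 1 was higher and 3 were lower in DKO at that line (6.15% and 7.60% of all tested genes), 2 and 1 in KO (2.25% and 2.27%) and 2 and 2 in KH (1.63% and 2.09%), and the median was 0.19, with 0.12 in KO and 0.15 in KH, against 0.27, 0.16 and 0.20 for the members. Those lower included the deleted Esrp1 and Esrp2 themselves, of which Esrp2 was called.

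In DKO, the other gene lower at this line was Rod1, and the higher one was Pcbp3. Rod1, now named Ptbp3 and a homologue of the polypyrimidine tract repressor Ptbp1, was at 42.1 and 54.6 FPKM in WT and at 26.9 and 25.1 in DKO, which did not overlap (log2 fold change -0.86 ± 0.25, adjusted p = 0.199 in limma). Pcbp3, a poly-C binding protein, was low throughout, at 1.24 and 0.946 FPKM in WT and 2.12 and 3.07 in DKO (0.77 ± 0.24, adjusted p = 0.228). Of 15 genes of nonsense-mediated decay 1 was at this line, Eif4a3, a subunit of the exon junction complex, which was at 63.0 and 56.1 FPKM in WT and 126 and 86.0 in DKO (0.80 ± 0.34, adjusted p = 0.349).

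The annotation of the members bears on what gene-level FPKM can show. In GENCODE M21, 19 of 30 members (63.3%) had at least 1 transcript classed as a target of nonsense-mediated decay, against 27.1% of 14133 tested protein-coding genes and 30.3% of the 5929 that were at least as abundant as the lowest member. A retained-intron transcript was annotated for 22 (73.3%), against 55.6% and 64.3%. The members also had more annotated transcripts, with a median of 7.5 against 5 and 6, and the part of this in the shares was not tested. In 11 members, 6 of them Srsf genes, a decay transcript held a cassette exon inside an intron of the coding transcripts, 17 exons in all. Srsf6 held such an exon (268 bases, chr2:162932815-162933082, on the mm10 assembly). The exons were found by position alone, and whether each one brings in a stop codon was not checked. SR proteins are known to limit their own mRNA through exons that lead to decay, whose inclusion a sum over transcripts does not separate.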

How the data were processed

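RNA of epidermis from individual E18.5 embryos was sequenced in 9 libraries of 4 genotypes, which were grouped by their labels. The authors aligned the reads with TopHat (1.4.1) to mm10 and deposited FPKM values per gene and library made with Cuffdiff (2.2.0), which hold no reads per gene, so no counting interval is given. The study lists mapped pairs per library, which were not used here. The study describes its mapped pairs as unique, but whether the FPKM rest on these alone is not given in the sources used here, and levels of members with paralogs or processed pseudogenes (Hnrnpa1, Hnrnpa3, Hnrnph1, Srsf3) are uncertain to that extent. The authors' mean columns were not used.

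Genes averaging above 0.1 FPKM in at least 1 genotype (16897) were analysed as log2(FPKM + 1), which understates fold changes of low genes. The libraries were fitted with limma (3.58.1, R 4.3.3), with 4 genotype means, trended eBayes and Benjamini-Hochberg adjustment over all genes. Calls needed an adjusted p below 0.05 and more than 2-fold average FPKM. The test was checked on simulated data. Members, lists and tests were chosen with earlier results of these data known. Values in every library are given for the 5 highest and 3 lowest members and for members at an unadjusted p below 0.05. They are also given for the 4 highest and 4 lowest fold changes against WT in each genotype. Genes of the splicing and decay lists at that line in DKO are given with WT and DKO levels, for Esrp1 partly as a range. Genes of the marker lists are not named singly apart from Malat1. Other genes were named after their values were seen. The 20 alternatives covered pseudocount, filters, scaling, weights, transcript length, the replicate block and leaving out each library. Python (3.11.15), pandas (2.3.3) and matplotlib (3.10.9) made the tables and plots.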

Additional observations from a re-analysis of the deposited data

How the results depend on the processing

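No member was called in any of the 6 comparisons under the 20 alternatives, and the lowest adjusted p of a member in any of them was 0.154 (DKO against WT with arrayWeights). In DKO, members at an unadjusted p below 0.05 numbered 1 as reported, 0 with a pseudocount of 0.1, the filter at 1 FPKM, TPM or median ratio scaling, 2 without the trend, and 3 without a filter, with only the 2 genotypes fitted or with arrayWeights, and 0 to 1 without single libraries. In KO it was 1 without the trend or with arrayWeights and 0 to 2 without single libraries, and in KH 0 to 4. The median log2 fold change of the members was 0.20 to 0.34 in DKO, 0.0450 to 0.30 in KO and -0.00338 to 0.27 in KH when single libraries were left out, and in these comparisons with WT it was not reversed by any scaling. Between DKO and KH it was 0.08 with 20 of 30 members above 0, but -0.10 with 6 above 0 with TPM, where the median of all genes was -0.12, and -0.05 with 10 above 0 with quantile normalization. In KH against WT it moved from 0.20 to 0.32 with TPM, where the median of all genes was 0.07, and to 0.32 with quantile normalization, each with 27 of 30 members above 0. Of the 30 members, the log2 fold change against WT changed sign without 1 of the libraries in 6 in DKO, 8 in KO and 20 in KH, and it changed sign or moved by over 1.5 times in 16, 25 and 29. Among the 4 highest and 4 lowest members of each comparison, the values that changed sign ranged from -0.49 to 0.0683 (Hnrnpk in DKO), -0.35 to 0.0209 (Hnrnph2 in KO), -0.32 to 0.00606 (Hnrnpk in KO), -0.0294 to 0.69 (Hnrnpd in KH), -0.66 to 0.14 (Hnrnpf in KH), -0.25 to 0.0207 (Hnrnpul2 in KH) and -0.46 to 0.25 (Hnrnpk in KH). Hnrnpk in KH was also at 0.0127 with TPM and 0.00267 with quantile normalization. The causes were not tested.

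Replicate numbers, taken from the titles, did not pair the libraries, since the deviations of same-numbered libraries correlated from -0.60 to 0.49 and the labels name no shared litter. With the replicate block, no member was called, 0 members in DKO and 2 in KO were at an unadjusted p below 0.05, and the median was 0.30 in KO, where the third library then has no partner. Of all 16897 tested genes, this block called 67 in DKO, 0 in KO and 0 in KH against WT. With the KH numbers crossed, an alternative added after seeing the data, 0 members were called in KH against WT and in DKO against KH. Of all tested genes, 0 and 43 were called in these. The descriptions number some libraries otherwise (WT 2 as 5, KO 3 as 4, DKO 1 as 2 and DKO 2 as 3), and same-numbered libraries then correlated from -0.24 to 0.57. Only WT 1 with KH 1 was negative, and WT 1 with KO 1 was at 0.04. KO 2 with DKO 1 was at 0.57, KO 1 with KH 1 at 0.49, KH 2 with DKO 1 at 0.46 and KO 2 with KH 2 at 0.35. Whether these numbers mark embryos handled together was not tested. A replicate block by these numbers, also added after seeing the data, leaves 1 residual degree of freedom. With it, 0 of the 16897 tested genes were called in any of the 6 comparisons, the deleted Esrp2 included. That 0 members were called therefore says nothing about them. FPKM hold no reads per gene and the mapped pairs listed by the study were not used, so limits from depth are not given.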
